A study of Danio rerio with 47 samples.

Results

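The genes described here encode the contractile apparatus of muscle and the factors that assemble and fuel it. They were chosen by name: all rows of the expression table whose name begins with that of a myosin heavy or light chain, troponin, tropomyosin, alpha-actin of muscle, alpha-actinin, muscle creatine kinase, filamin C, myosin-binding protein C, unc45b or smyd1, plus the row of ckmt2a, which carries a clone name in the files and was added with its rise at 14 dpf already known. The rule found 72 of the 31475 rows. It was written with earlier results of these data known, so counts of called members are descriptions. By what their names are known for, 24 rows were placed with fast or shared skeletal muscle, 12 with slow skeletal muscle, 8 with the heart, 14 with smooth muscle or non-muscle cells and 8 with myosin assembly, filamin C and mitochondrial creatine kinase. The remaining 6 (actn2, myh7, myl2, myl2b, tnni3k and tpm1) have names that fit no single class.

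The RNA came from developing trunks of zebrafish. Wild-type fish were compared with dnd morphants, fish injected as 1-cell embryos with an antisense morpholino that keeps the dnd transcript from being translated. The dnd protein is needed by primordial germ cells. According to the labels, morphant and wild-type fish were screened at 24 hours post fertilization, and morphants had 1 to 9 germ cells left per fish. At 14 days post fertilization (dpf) 9 arrays were morphant and 14 wild type, and at 22 dpf the numbers were 10 and 14. Arrays are labelled biological replicates, but whether each holds 1 fish or a pool is not stated, so p-values measure the spread between these samples. The labels state 10 replicates for the morphants at 14 dpf, and 9 arrays were analysed here. A morpholino acts in the whole early embryo, not in germ cells alone, and the labels name no control morpholino for the wild-type fish.

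In striated muscle, thick filaments of myosin slide along thin filaments of actin, and the troponin complex on tropomyosin makes this depend on calcium. Alpha-actinin and filamin C hold the filaments at the Z-disc, while the chaperone Unc45b, working with Hsp90 and the methyltransferase Smyd1, folds and assembles myosin. Creatine kinases in the cytosol and at the mitochondrial membrane shuttle energy to the filaments. Fast, slow and heart muscle use different genes for many of these parts, and the trunk of a zebrafish larva is made largely of fast fibres with a thin layer of slow fibres.

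Values are log2 intensities of 1-colour arrays, on a scale that ran from 3.298 to 15.86 in the table. Many of the genes lay near its upper end: 30 of the 72 rows (41.7%, against 4.87% of all rows) had a mean of at least 13 over all 47 arrays, 37 lay between 6 and 13, and 5 lay below 6. Different rows are read by different probes, so levels of different rows are described but not read as relative amounts of RNA. Each difference subtracts the wild-type from the morphant mean (log2) and is given with its standard error (SE) from limma, and a gene is called changed at a Benjamini-Hochberg adjusted p below 0.05 over all rows. In bulk RNA, fewer cells of a type and less RNA per cell cannot be told apart.

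Across the whole table, limma called 362 rows higher and 418 lower in morphants at 14 dpf (493 and 328 after each array was centred on its median), and 186 higher and 911 lower at 22 dpf. Germ cell genes were called lower in morphants in 7 of 12 marker rows at 14 dpf (1.33% of all rows) and in 12 of 12 at 22 dpf (2.89% of all rows). At 14 dpf 2 of the 12 rows lay above 0, the highest at 0.92, and did not pass. Depletion was not equal on all morphant arrays, and the mean of these 12 rows per array overlapped between morphants and wild type at both ages. At 14 dpf it ran from 6.899 to 8.608 in wild type, and the highest morphant array lay within that range. At 22 dpf it ran from 5.422 to 8.261 in morphants and from 7.454 to 10.87 in wild type. Morphants are therefore not read as free of germ cells. The arrays hold 6 pairs of near-duplicates (correlations of their deviations from the group between 0.765 and 0.920, with 0.534 as the highest among the other pairs). These are morphants 5 and 13 at 14 dpf, morphants 1 and 2 and morphants 3 and 4 at 22 dpf, and wild-type arrays 5 and 6, 7 and 8, and 9 and 10 at 22 dpf. Called members are therefore also given with each pair averaged into 1 sample. Counts of arrays above or below a median or range, given below, take both arrays of a pair as separate. In that setting 7 germ cell marker rows were called lower and 1 higher at 14 dpf, against 251 and 149 of all rows. Skeletal muscle markers were high in all groups, with desma (desmin) between 14.91 and 15.23 and the parvalbumin pvalb1 between 15.27 and 15.47 as group means. Heart markers were mixed: of 15 rows, 8 had a mean below 6, such as nppa between 4.58 and 4.79 as group means, 4 lay between 6 and 8, and 3 (vmhc, casq2 and popdc2) had a mean of at least 10. Smooth muscle markers were mixed, with the transgelin tagln between 12.01 and 13.62 and the smoothelin smtnb between 4.80 and 5.04.

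At 14 dpf the comparison asked how muscle transcripts of the trunk differ after early, incomplete depletion of germ cells. Of the 72 rows, 2 rose, 1 fell and 69 did not pass; among all rows 2.48% were called, 1.15% higher and 1.33% lower (1.27% with near-duplicate pairs averaged, when 1 member was called). Since ckmt2a was added by name after its rise was known, its part of that count is a description; among the other 71 rows 1 rose and 1 fell. The rises were the sarcomeric mitochondrial creatine kinases ckmt2a (listed as zgc:56085) and ckmt2b (listed as ckmt2), and the fall was the non-muscle alpha-actinin actn4. The difference was above 0 in 47 rows and below 0 in 25, with a median of 0.07 (all rows: above 0 in 48.8%, median -0.01). For 52 rows it was smaller than 0.3 in size, and 12 had an unadjusted p below 0.05, against 16.7% of all rows.

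Ckmt2a, an enzyme that passes phosphate from ATP to creatine at the mitochondria of muscle, ran from 8.98 to 12.82 in morphants at 14 dpf with a median of 11.31. In wild type it ran from 5.05 to 11.47 with a median of 8.58. All 9 morphant arrays were above the median of wild type and 3 lay above every wild-type array, but the groups overlapped. These 3 were arrays 1, 5 and 13, of which 5 and 13 are a near-duplicate pair. Means were 10.97 ± 1.25 (SD, n = 9) and 8.53 ± 1.77 (SD, n = 14), a difference of 2.44 ± 0.65 or 5.42-fold (adjusted p = 0.0325, limma). Its paralog ckmt2b ran from 13.20 to 14.83 with a median of 14.16 in morphants and from 10.05 to 14.37 with a median of 13.04 in wild type. Again all 9 morphant arrays exceeded the wild-type median, and the wild-type arrays were spread more widely than the morphants. Ckmt2b averaged 14.12 ± 0.51 (SD, n = 9) and 12.88 ± 1.1 (SD, n = 14), a difference of 1.24 ± 0.32 or 2.36-fold (adjusted p = 0.0249, limma).

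Both calls were lost with the near-duplicate pairs averaged (ckmt2a 2.35 ± 0.70, adjusted p = 0.0757; ckmt2b 1.19 ± 0.35, adjusted p = 0.0686). Without single arrays ckmt2a kept its call in 16 of 23 fits and ckmt2b in 21 of 23, the latter losing it without morphant array 1 or 5. Ckmt2a lost its call without morphant array 1, 5, 13, 14 or 16 or without wild-type array 20 or 23 (highest adjusted p = 0.0778). Fitted on the 14 dpf arrays alone, neither passed (adjusted p = 0.074 for ckmt2a and 0.125 for ckmt2b). The other creatine kinases did not pass. Ckmt1, of the same mitochondrial family, ran from 8.0 to 9.88 in morphants and from 6.68 to 10.13 in wild type (0.48 ± 0.33, adjusted p = 0.487). The cytosolic muscle enzymes ckma (0.06, 95% interval -0.11 to 0.23) and ckmb (-0.12, 95% interval -0.39 to 0.16) had group means between 14.39 and 15.24, near the upper end of the scale.

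**Figure D1:**
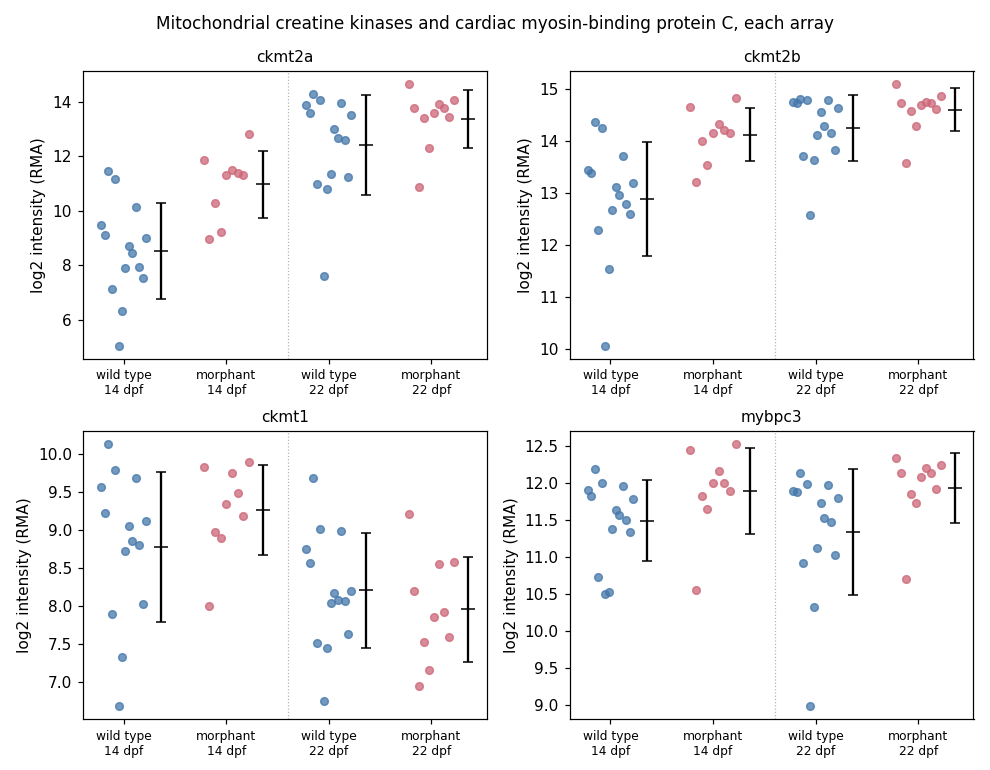
Log2 intensity of ckmt2a, ckmt2b, ckmt1 and mybpc3 on each array (points) by group, with the group mean and SD beside the points (black). At 14 dpf all 9 morphant arrays of ckmt2a and of ckmt2b lie above the wild-type median, and wild-type array 12 at 22 dpf is the lowest of its group for both.

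Actn4 crosslinks actin filaments in non-muscle cells and at cell contacts. It ran from 11.51 to 12.42 in morphants at 14 dpf with a median of 11.91, and from 11.95 to 12.64 in wild type with a median of 12.42. Of the 9 morphant arrays 5 lay below every wild-type array and 8 below the wild-type median. Means were 11.89 ± 0.34 (SD, n = 9) and 12.39 ± 0.18 (SD, n = 14), so actn4 fell by 0.50 (SE 0.11, adjusted p = 0.0120, limma), a 1.41-fold change. This call was the only one of the 3 that held with the near-duplicate pairs averaged (-0.46 ± 0.12, adjusted p = 0.0377), and it held in all 23 fits that left out an array. It did not pass in a fit of the 14 dpf arrays alone (adjusted p = 0.0728).

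Below the threshold at 14 dpf stood filamin C a (flnca) and the myosin chaperone unc45b. Flnca, which links actin filaments at the Z-disc and the fibre ends, ran from 10.30 to 12.11 in morphants with a median of 11.46 and from 10.61 to 13.44 in wild type with a median of 12.42. Unc45b ran from 9.57 to 11.46 in morphants with a median of 10.78 and from 10.69 to 12.50 in wild type with a median of 11.50. All 9 morphant arrays were below the median of wild type for each gene. The differences were -0.89 ± 0.27 for flnca (adjusted p = 0.0619) and -0.88 ± 0.28 for unc45b (adjusted p = 0.0750). With the title number groups as a block, flnca passed at 14 dpf (-0.93 ± 0.24, adjusted p = 0.0233). The partners of unc45b gave -0.09 ± 0.25 for smyd1b, 0.15 ± 0.13 for smyd1a and, outside the name rule, -0.41 ± 0.12 for the muscle chaperone hsp90aa1.1 (adjusted p = 0.0553), which lay below the wild-type median on 9 of 9 morphant arrays.

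The genes of the fast sarcomere gave no call among 24 rows at 14 dpf, and 20 of them differed by less than 0.3. Of these rows 17 had a mean of at least 13 and 8 of at least 15, near the upper end of the scale, and how far that limits their differences was not tested (limma, 2 rows at an unadjusted p below 0.05, class median 0.04). The fast regulatory light chain mylpfa differed by -0.02 (95% interval -0.19 to 0.15), the fast myosin heavy chain myhc4 by 0.04 (-0.13 to 0.21), skeletal alpha-actin acta1b by 0.00 (-0.17 to 0.17) and the fast troponin T tnnt3b by -0.02 ± 0.12. Of the fast troponin I rows, tnni2b.1 had the largest difference, with 10.65 ± 0.40 for morphants against 9.90 ± 0.59 for wild type (0.75 ± 0.25, adjusted p = 0.101, 9 of 9 morphant arrays above the wild-type median). Tnni2a.2 went the other way (-0.42 ± 0.17, adjusted p = 0.184, 0 of 9 above). The fast myosin-binding protein C mybpc2a differed by 0.63 ± 0.32 (adjusted p = 0.309), with a wild-type spread from 6.08 to 9.89.

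Slow muscle gave no call among its 12 rows at 14 dpf (limma, 2 rows at an unadjusted p below 0.05). Of the 12 rows 10 lay above 0, against 48.8% of all rows, with a class median of 0.14. The largest positive values were those of the slow troponin I row tnni4b.2 (listed as tnni1al, 0.43 ± 0.18, adjusted p = 0.205) and the troponin T tnnt2e (0.34 ± 0.13, adjusted p = 0.149). For the slow troponin C tnnc1b, all 9 morphant arrays were above the median of wild type by a small margin (0.11 ± 0.08, adjusted p = 0.512). The myosin heavy chain myh7ba (listed as myh7b) had the largest negative value, -0.54 ± 0.39.

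Heart-type genes split evenly, 4 above and 4 below 0 with a class median of -0.02, and 0 of 8 passed (limma, 0 rows at an unadjusted p below 0.05). The cardiac light chain myl7, which defines the heart in zebrafish, stood at 5.01 ± 0.58 (SD, n = 9) and 4.98 ± 0.31 (SD, n = 14), morphants first, near the bottom of the scale. The atrial myosin myh6 averaged 5.09 ± 0.58 and 5.38 ± 0.98. The cardiac alpha-actin actc1a stood at 14.41 and 14.48 and the cardiac myosin-binding protein C mybpc3 at 11.9 ± 0.58 and 11.49 ± 0.55 in the same samples. The class names are those of the genes.

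Among the 14 smooth muscle and non-muscle rows the median difference was -0.06, and actn4 was the single call. The non-muscle myosin heavy chain myh9b gave -0.65 ± 0.23 (adjusted p = 0.107), with 10.20 ± 0.64 for morphants against 10.86 ± 0.50 for wild type. Its paralogs myh9a (-0.32 ± 0.18) and myh10 (-0.27 ± 0.21) were also below 0 and did not pass. Smooth muscle alpha-actin acta2 (-0.24 ± 0.23) and smooth muscle myosin myh11a (-0.07 ± 0.26) did not pass, and the light chains myl6 (0.29 ± 0.13), myl12.2 (0.23 ± 0.11) and myl12.1 (0.20 ± 0.13) were above 0.

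**Figure D2:**
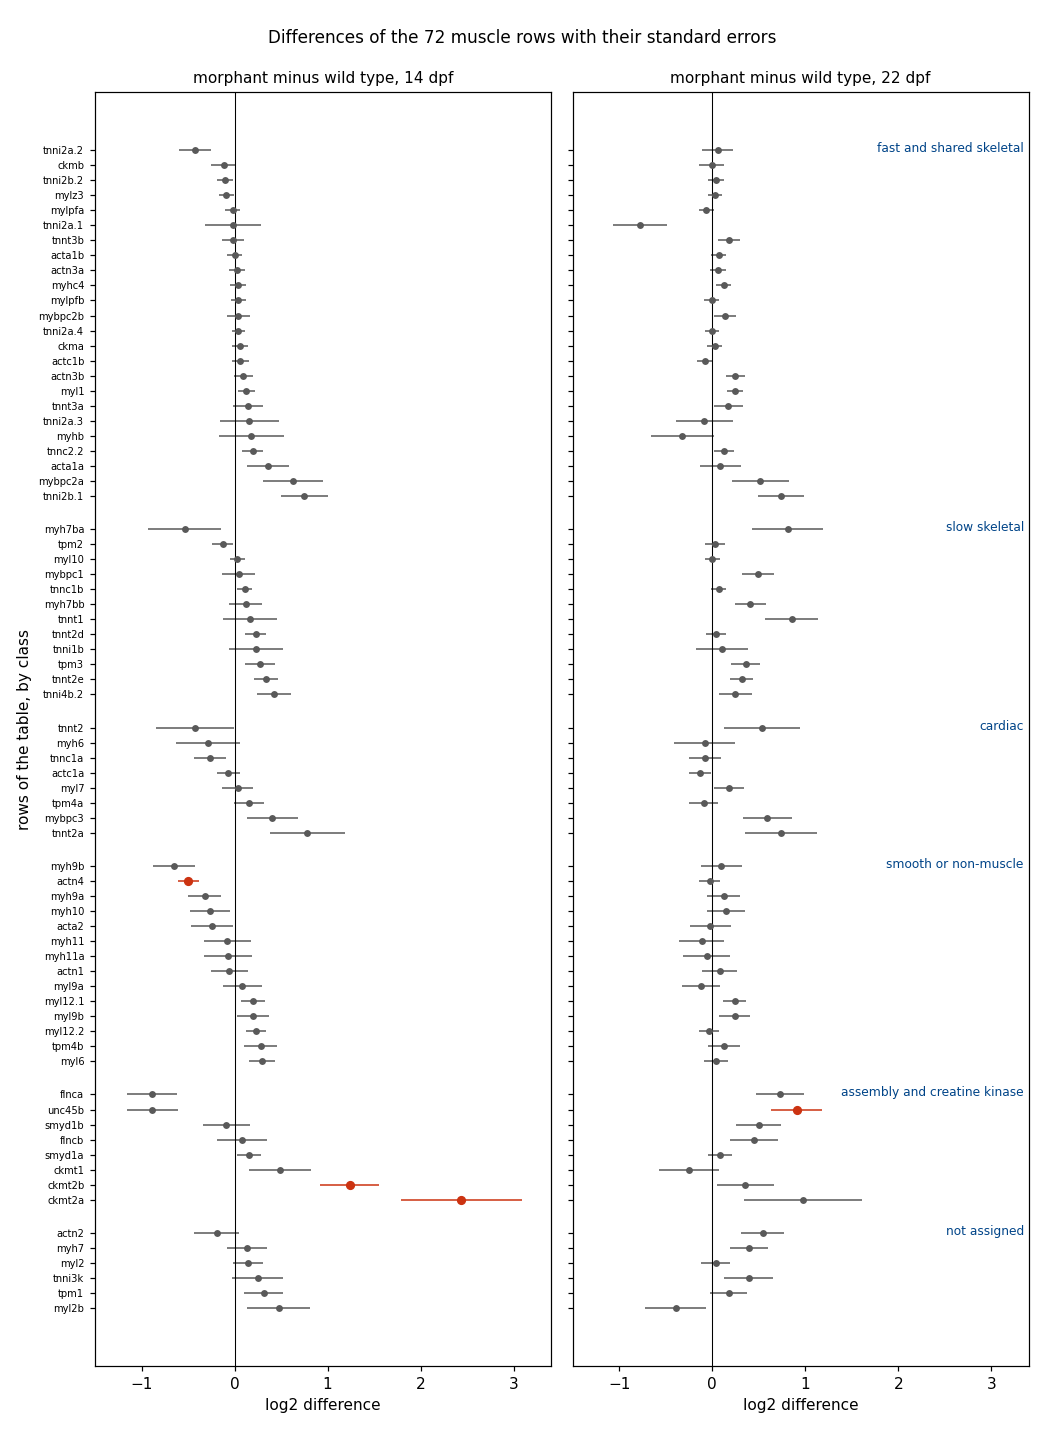
Morphant minus wild-type difference (log2) of each of the 72 rows at 14 dpf (left) and 22 dpf (right), grouped by class, with the SE as bars. Red points are called at an adjusted p below 0.05: actn4, ckmt2b and ckmt2a at 14 dpf and unc45b at 22 dpf.

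At 22 dpf, 1 of the 72 rows rose, 0 fell and 71 did not pass (limma, 15 rows at an unadjusted p below 0.05, against 13.9% of all rows). Among all rows 3.49% were called, 0.591% higher and 2.89% lower (2.12% with near-duplicate pairs averaged, when 0 members were called and 11 had an unadjusted p below 0.05). The gene that rose was unc45b, which the name rule lists by itself. Members were chosen with earlier results known, so this count is a description. The difference was above 0 in 52 rows and below 0 in 20, with a median of 0.10 (all rows: above 0 in 55.2%, median 0.04).

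Unc45b ran from 8.91 to 10.77 in morphants at 22 dpf with a median of 9.43, and from 7.5 to 10.68 in wild type with a median of 8.76. All 10 morphant arrays were above the median of wild type, but the groups overlapped. Wild-type arrays 7, 8, 10, 21 and 23 lay within the morphant range, number 21 highest at 10.68. Means were 9.67 ± 0.65 (SD, n = 10) and 8.76 ± 0.81 (SD, n = 14), a difference of 0.91 ± 0.27 or 1.87-fold (adjusted p = 0.0475, limma). The call was lost with the near-duplicate pairs averaged (0.82 ± 0.30, adjusted p = 0.208), and it was kept in 8 of the 24 fits that left out an array. Those 16 losses came from leaving out morphant array 1, 2, 3, 4, 16 or 17 or wild-type array 5, 6, 9, 10, 11, 12, 19, 20, 22 or 24 (highest adjusted p = 0.126). It did not pass in a fit of the 22 dpf arrays alone (adjusted p = 0.0974).

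Of the 8 assembly and creatine kinase rows 7 were above 0 and ckmt1 was below (-0.25 ± 0.32), and none but unc45b passed. Flnca ran from 10.70 to 11.60 in morphants with a median of 11.02 and from 9.54 to 11.53 in wild type with a median of 10.10. All 10 morphant arrays were above the wild-type median (0.73 ± 0.26, adjusted p = 0.130). Smyd1b differed by 0.50 ± 0.25 (adjusted p = 0.354), flncb by 0.45 ± 0.26 (adjusted p = 0.458) and hsp90aa1.1 by 0.10 ± 0.12. Ckmt2a and ckmt2b, called at 14 dpf, gave 0.98 ± 0.63 (adjusted p = 0.545) and 0.36 ± 0.31 (adjusted p = 0.689), each with 8 of 10 morphant arrays above the wild-type median. Actn4 gave -0.03 (95% interval -0.25 to 0.19).

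Slow muscle rows were all on the positive side at 22 dpf, with 12 of 12 differences above 0, against 55.2% of all rows. They ran from 0.00 to 0.85 with a class median of 0.28, and 0 passed (limma, 6 rows at an unadjusted p below 0.05). Among the lists described below, 14 of 15 skeletal muscle markers, 33 of 38 excitation-contraction rows and 34 of 43 further sarcomere rows also lay above 0. The smooth muscle markers had 3 above and 7 below, and the slow and ventricular myosin list had 3 and 3. The slow troponin T tnnt1 ran from 4.78 to 6.84 in morphants with a median of 6.10 and from 4.35 to 5.86 in wild type with a median of 5.03. That is a difference of 0.85 ± 0.28 (adjusted p = 0.0909) at a low level, with 9 of 10 morphant arrays above the wild-type median. The slow myosin-binding protein C mybpc1 differed by 0.49 ± 0.17 (adjusted p = 0.107), with 12.86 ± 0.47 and 12.37 ± 0.52. The tropomyosin tpm3 differed by 0.36 ± 0.15 and myh7ba by 0.81 ± 0.38, while myl10 gave 0.00 ± 0.08 and tnnt2d 0.04 ± 0.11.

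Fast muscle rows at 22 dpf had 16 differences above and 8 below 0 with a median of 0.06, 20 of 24 within 0.3, and 0 passed (limma, 4 rows at an unadjusted p below 0.05). The essential light chain myl1 differed by 0.24 ± 0.09 (adjusted p = 0.141, 9 of 10 morphant arrays above the wild-type median), and with a trended, robust variance model it passed. Tnni2b.1 differed by 0.74 ± 0.25 (adjusted p = 0.0900, 10 of 10 arrays), close to its value at 14 dpf. Tnni2a.1 had the largest negative value, with 5.93 ± 0.84 for morphants against 6.71 ± 0.49 for wild type (-0.78 ± 0.29, adjusted p = 0.163), and 1 morphant array (number 16) stood at 7.86, above every wild-type array. Of the 8 heart-type rows 4 lay above and 4 below 0, with a median of 0.05, and 0 passed (limma, 1 row at an unadjusted p below 0.05). Values above 0 included mybpc3 at 0.59 ± 0.26 (adjusted p = 0.280), tnnt2a at 0.74 ± 0.39 and myl7 at 0.18 ± 0.16, and the lowest was that of actc1a at -0.13. Smooth muscle and non-muscle rows all lay within 0.3 of 0, with a median of 0.06.

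The difference between the effects at the 2 ages was tested in the same model, where 2 of the 72 rows passed, both higher. Among all rows 0.645% passed, 0.0921% higher and 0.553% lower (0.21% with near-duplicate pairs averaged, when 1 member passed). The value was above 0 in 39 members and in 53.4% of all rows. The 2 members that passed were unc45b and flnca. The name rule, which names unc45b and filamin C, was written with earlier results of these data known. Their count is therefore a description. For unc45b the effect was -0.88 at 14 dpf and 0.91 at 22 dpf, a difference of 1.79 ± 0.39 (adjusted p = 0.0153, limma). For flnca it was -0.89 and 0.73, a difference of 1.62 ± 0.37 (adjusted p = 0.0274, limma). Both kept their call in all 47 fits that left out an array, with adjusted p between 0.00495 and 0.0354 for unc45b and between 0.0110 and 0.0480 for flnca. With the near-duplicate pairs averaged, unc45b passed (1.80 ± 0.41, adjusted p = 0.0468) and flnca did not (1.53 ± 0.42, adjusted p = 0.121). Within numbers 1 to 12 of the titles 0 members passed (limma, 7 at an unadjusted p below 0.05), with 2.33 for unc45b and 2.0 for flnca (adjusted p = 0.0834 for each), and 0% of all rows were called. From number 13 on 0 members passed as well (9 at an unadjusted p below 0.05), with 1.48 and 1.24 (adjusted p = 0.333 and 0.380), against 0.0953% of all rows.

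**Figure D3:**
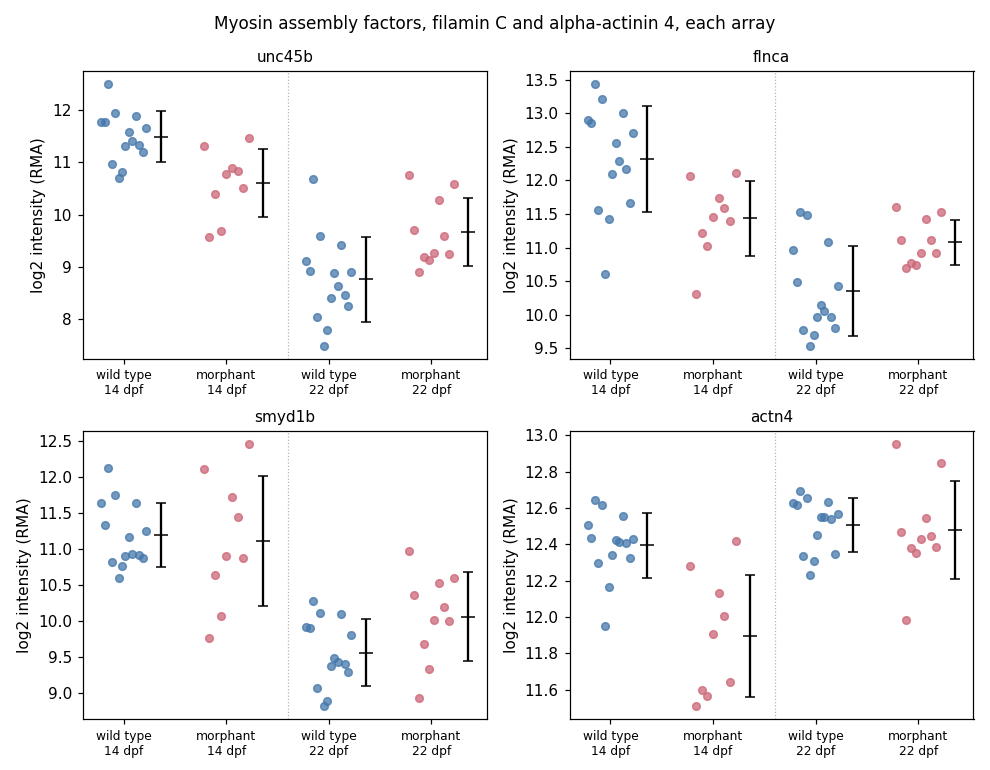
Log2 intensity of unc45b, flnca, smyd1b and actn4 on each array (points) by group, with the group mean and SD beside the points (black). For unc45b and flnca all 9 morphant arrays lie below the wild-type median at 14 dpf and all 10 lie above it at 22 dpf.

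No other member passed this test. Actn4 gave 0.47 ± 0.16 (adjusted p = 0.178), hsp90aa1.1 0.51 ± 0.17 (adjusted p = 0.177) and smyd1b 0.59 ± 0.35 (adjusted p = 0.560). Ckmt2a gave -1.46 ± 0.91 (adjusted p = 0.575) and ckmt2b -0.88 ± 0.44 (adjusted p = 0.454), so their calls at 14 dpf and not at 22 dpf are not shown to differ between the ages. The class medians of this contrast were 0.01 for fast, 0.03 for slow and 0.16 for heart-type rows.

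As the mean over the rows of a class on each array, fast muscle stood at 13.04 ± 0.19 (SD, n = 9) for morphants against 12.95 ± 0.10 (SD, n = 14) for wild type at 14 dpf. At 22 dpf it stood at 13.32 ± 0.10 (SD, n = 10) and 13.25 ± 0.11 (SD, n = 14). Morphant and wild-type arrays overlapped at both ages, from 12.73 to 13.24 against 12.78 to 13.08 and from 13.20 to 13.49 against 13.10 to 13.45. Slow muscle stood at 12.01 ± 0.16 and 11.90 ± 0.14 at 14 dpf and at 11.93 ± 0.15 and 11.61 ± 0.26 at 22 dpf, morphants first. The lowest slow value at 22 dpf, 10.96, was a wild-type array, and the highest morphant and wild-type values were 12.08 and 11.94. Heart-type rows stood at 8.60 ± 0.17 and 8.56 ± 0.25, then at 9.5 ± 0.19 and 9.29 ± 0.29. These class means describe the arrays and carry no test.

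The 2 ages appear to have been normalized in separate runs, as arrays of 1 age share exact low values more often than arrays of different ages, so levels at 14 and 22 dpf are set side by side without a test. In wild type, 37 of the 72 rows stood higher and 35 lower at 22 dpf (median shift 0.03, all rows -0.02, of which 48.6% stood higher). In morphants 45 stood higher and 27 lower, against 50.3% of all rows higher. Slow rows stood lower at 22 dpf in 10 of 12 cases in wild type and in 6 of 12 in morphants, and fast rows stood higher in 18 and 17 of 24. The largest distances in wild type belonged to ckmt2a, at 8.53 and 12.40 in wild type at the 2 ages and 10.97 and 13.38 in morphants, and to unc45b, at 11.49 and 8.76 in wild type and 10.61 and 9.67 in morphants. Flnca stood at 12.32 and 10.35 in wild type and 11.43 and 11.08 in morphants, and smyd1b at 11.20 and 9.56 in wild type and 11.11 and 10.06 in morphants.

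For other rows the wild-type means lay apart between the ages, with arrays that overlapped. The myosin heavy chain myhb was at 6.68 and 8.57, mybpc2a at 7.98 and 9.68, and the atrial myosin myh6 at 5.38 and 6.96. The cardiac troponin C tnnc1a was at 7.51 and 8.67, smooth muscle acta2 at 9.96 and 11.25, myh11a at 5.86 and 7.3 and the tropomyosin tpm3 at 13.69 and 12.77. In wild type every array of 22 dpf lay above every array of 14 dpf for 1 row, tnni2a.4 (1.2% of all rows), and below for 3 rows, smyd1b, unc45b and the fast troponin C tnnc2.2 (listed as tnnc2; 1.08% of all rows). In morphants the ages were apart upward for 4 rows, acta2, myhc4, tnnc1a and tnni2a.2 (2.48% of all rows), and downward for 2, myl6 and tnnc2.2 (2.03% of all rows). Tnnc2.2 stood at 14.02 and 13.28 in wild type and at 14.21 and 13.41 in morphants. How far separate normalization sets these distances was not tested.

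**Figure D4:**
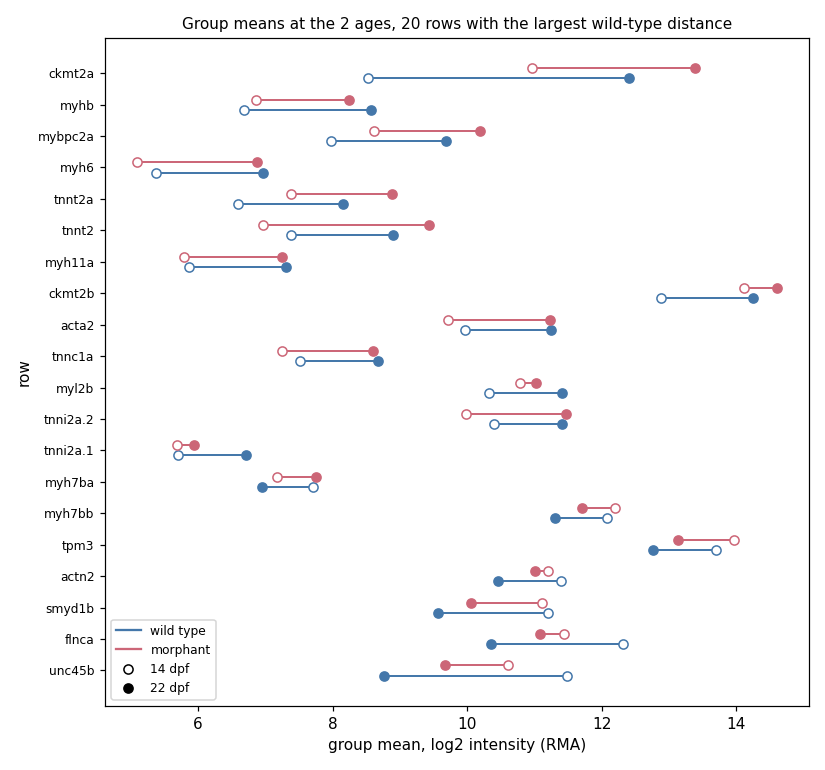
Group means (log2 intensity) at 14 dpf (open) and 22 dpf (filled) in wild type (blue) and morphants (red) for the 20 rows with the largest distance between ages in wild type. Lines join the ages of a genotype. The ages are set side by side with no test. Unc45b, flnca and smyd1b stand lower at 22 dpf and ckmt2a higher.

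Between arrays of a group, the 30 rows with a mean of at least 13 had a median SD between 0.168 and 0.208 in the 4 groups, against 0.442 to 0.586 for the other 42 rows and 0.53 to 0.65 for all rows. How far the upper end of the scale sets the smaller spread was not tested. In wild type at 14 dpf, 8 rows (11.1%, against 20.7% of all rows) had an SD above 1. These were ckmt2a, ckmt2b, mybpc2a, myh7ba, myhb, myl2b, tnnt2 and tnnt2a. Ckmt2a had an SD above 1 in each of the 4 groups.

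Ckmt2a and ckmt2b varied together. With near-duplicate pairs averaged, Pearson's r between ckmt2a and ckmt2b was 0.960 in morphants (n = 8, Spearman's rho 0.881, exact permutation p = 0.000347 and 0.00724) and 0.960 in wild type (n = 14, rho 0.978) at 14 dpf. At 22 dpf it was 0.984 in morphants (n = 8, rho 0.762, exact permutation p = 0.000893 and 0.0368) and 0.980 in wild type (n = 11, rho 0.927). For the wild-type groups the permutation p was 1e-05 for each r and for rho at 14 dpf, the smallest that 100000 permutations can give, and 8e-05 for rho at 22 dpf. Without the 2 arrays farthest from the median of ckmt2a, r was between 0.888 and 0.967 in the 4 groups. Within the number groups that held at least 6 samples it was between 0.909 and 0.986. Adjusted over 40 p-values (5 gene pairs in 4 groups, chosen after their values had been seen), these p-values for r lay between 0.000133 and 0.00595, and those for rho between 0.000133 and 0.0865, the morphants at 22 dpf being highest. The adjustment does not cover the choice of this pair or of the pairs below, and other pairs of rows were not correlated. Whether the probes tell the 2 paralogs apart was not tested.

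**Figure D5:**
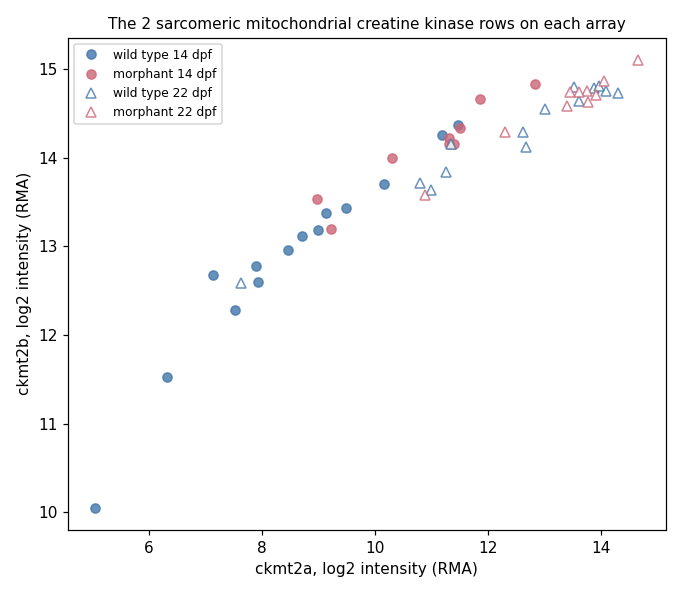
Log2 intensity of ckmt2a (x axis) against ckmt2b (y axis) on each array, wild type in blue and morphants in red, 14 dpf as filled circles and 22 dpf as open triangles. The arrays of every group follow 1 rising band, which flattens near 15 at the upper end of the scale.

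Other pairs were looser. Ckmt2a and mybpc3 had r = 0.750 in wild type at 14 dpf (n = 14, rho 0.688, permutation p = 0.00186 and 0.00809, adjusted 0.00930 and 0.0294), with 0.450 and 0.930 within the number groups. In morphants at 22 dpf their r of 0.911 (n = 8, rho 0.786, exact permutation p = 0.00672 and 0.0279, adjusted 0.0290 and 0.0759) rested on the 2 farthest arrays, without which it was 0.253. It was 0.621 in morphants at 14 dpf (n = 8, rho 0.738, exact permutation p = 0.0970 and 0.0458, adjusted 0.155 and 0.102). In wild type at 22 dpf it was also 0.621 (n = 11, rho 0.664, permutation p = 0.0582 and 0.0309, adjusted 0.117 and 0.0772). Unc45b and smyd1b, whose proteins act together on myosin, had r = 0.762 in wild type at 14 dpf (n = 14, rho 0.635, permutation p = 0.00139 and 0.0172, adjusted 0.00794 and 0.0574) and 0.630 without the 2 farthest arrays. In morphants it was 0.763 at 14 dpf (n = 8, rho 0.714, exact permutation p = 0.0282 and 0.0576, adjusted 0.0759 and 0.117) and 0.595 at 22 dpf (n = 8, rho 0.69, exact permutation p = 0.118 and 0.0694, adjusted 0.181 and 0.126). In wild type at 22 dpf that r was 0.130 (n = 11, rho 0.2, permutation p = 0.711 and 0.556). Unc45b and flnca had r between 0.136 and 0.531 within the 4 groups (n = 8 to 14, permutation p from 0.0894 to 0.757, rho between -0.0952 and 0.582 with p from 0.0653 to 0.84). Tnnt2a and tnnt2 had r between -0.414 and 0.664 (n = 8 to 14, permutation p from 0.0285 to 0.322, rho between -0.31 and 0.536 with p from 0.0943 to 0.619), and no p of this pair was below 0.05 after adjustment.

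Titles number the arrays within an age. Numbers 1 to 12 and from 13 on were treated as a possible batch, since each holds morphant and wild-type arrays. Within numbers 1 to 12 at 14 dpf (5 morphant and 7 wild-type arrays), ckmt2a differed by 2.06, ckmt2b by 0.90, actn4 by -0.43, flnca by -0.91 and unc45b by -0.76. From number 13 on (4 and 7 arrays) the values were 2.78, 1.56, -0.59, -0.95 and -1.01, so each kept its sign in both. Morphant arrays 5 and 13, a near-duplicate pair, lie in different number groups, so the number groups at 14 dpf are not independent. At 22 dpf unc45b differed by 1.57 within numbers 1 to 12 (4 and 8 arrays, adjusted p = 0.0248, limma) and by 0.47 from 13 on (6 and 6 arrays, adjusted p = 0.885), and flnca by 1.09 and 0.29. The 4 morphant arrays of the first number group at 22 dpf are the 2 near-duplicate pairs. Wild-type arrays 5 and 6, 7 and 8, and 9 and 10 of that group are near-duplicate pairs as well. The p-value of unc45b there counts the arrays of a pair as separate samples.

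The sign of the difference at 14 dpf was opposite in the number groups for 37 of the 72 rows, and for 24 at 22 dpf. The share among all rows was not counted, so these counts are not read as a trait of muscle genes. For 3 rows at 14 dpf (tnnt2a, flncb and myh11) both values reached 0.5 in size, and ckmt1 gave -0.28 and 1.29 and mybpc3 -0.08 and 0.92. From number 13 on, 2 of the 72 rows passed the test, tnnt2a and myh9b, against 2.85% of all rows in that fit, and within numbers 1 to 12 limma called 0 members (8 at an unadjusted p below 0.05) and 0.143% of all rows. The cardiac troponin T tnnt2a differed by -0.85 within numbers 1 to 12, where morphants averaged 6.55 ± 1.17 and wild type 7.40 ± 0.64. From 13 on it differed by 2.62 (adjusted p = 0.00702, limma), with 8.40 ± 0.71 and 5.78 ± 1.03. Myh9b differed by 0.15 within numbers 1 to 12 and by -1.57 from 13 on (adjusted p = 0.00514, limma), where morphants averaged 9.65 ± 0.14 and wild type 11.22 ± 0.35. At 22 dpf tnnt2a differed by 0.92 and 0.48 and myh9b by 0.48 and -0.04 in the same number groups. The pooled values of tnnt2a and myh9b at 14 dpf, 0.78 and -0.65, average over these number groups. The row tnnt2, whose name is a synonym of several genes, went the other way at 14 dpf. Its pooled difference of -0.43 was the lowest of the heart-type rows and did not pass.

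Muscle genes mostly outside the name rule were counted from lists of their pathways. The energy metabolism list also holds the member ckmt1, and the lists share some rows, so they are not independent of each other. Of 38 rows for excitation-contraction coupling and calcium handling, 3 rose and 0 fell at 14 dpf, and 3 rose and 0 fell at 22 dpf, with medians of 0.15 and 0.19 (1.15% and 0.591% of all rows rose, and these shares hold for the lists that follow). Cacng1a (listed as cacng1), a subunit of the muscle calcium channel, rose at both ages. It ran from 9.33 to 11.75 in morphants and from 8.95 to 10.76 in wild type at 14 dpf (1.04 ± 0.29, adjusted p = 0.0377), and from 9.60 to 11.44 and 7.67 to 10.49 at 22 dpf (1.06 ± 0.28, adjusted p = 0.0166). The groups overlapped at both ages, with 8 of 9 and 10 of 10 morphant arrays above the wild-type median. At 14 dpf the related subunit cacng6a rose by 1.56 ± 0.37 (adjusted p = 0.0153) and the acetylcholine receptor subunit chrne by 1.3 ± 0.35 (adjusted p = 0.0317). At 22 dpf stac3, a coupling adaptor of the same channel, rose by 0.70 ± 0.19 (adjusted p = 0.0239) and the receptor subunit chrna1 by 0.68 ± 0.21 (adjusted p = 0.0491). Within title numbers 1 to 12 and from 13 on, stac3 differed by 0.70 and 0.46 and chrna1 by 0.59 and 0.62. The pooled value of chrna1 thus lay above both. With the number groups as a block, limma called 4 rows of the list at 14 dpf and 2 at 22 dpf (3.27% and 3.42% of all rows). With near-duplicate pairs averaged, cacng6a alone held at 14 dpf (1.42, adjusted p = 0.0474) and 0 of the list held at 22 dpf (limma, 5 rows at an unadjusted p below 0.05, lowest adjusted p among the 3 genes 0.0712).

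Of 40 rows for myogenic and fibre-type regulators 1 rose at 14 dpf and 0 changed at 22 dpf (limma, 3 rows at an unadjusted p below 0.05). The gene was trim63a (listed as trim63, also known as MuRF1), a ubiquitin ligase that marks sarcomere proteins for breakdown. It ran from 11.26 to 13.74 in morphants with a median of 12.92 and from 9.41 to 12.14 in wild type with a median of 11.12. All 9 morphant arrays exceeded the wild-type median, the difference was 1.75 ± 0.33 (adjusted p = 0.00255, limma), and with pairs averaged it was 1.63 (adjusted p = 0.0126). It was 0.56 within title numbers 1 to 12 and 3.05 from 13 on. At 22 dpf trim63a differed by 0.31 ± 0.32. The 43 further sarcomere and Z-disc rows had medians of 0.16 and 0.20 at 14 and 22 dpf, and 0 were called at either age (limma, 7 and 12 rows at an unadjusted p below 0.05). The 29 rows of muscle energy metabolism had medians of 0.16 and 0.10 with 0 called (5 and 3 rows at an unadjusted p below 0.05). Among 6 slow and ventricular myosin rows named otherwise, 0 were called (1 and 2 rows at an unadjusted p below 0.05), the slow myosin smyhc1 differing by 0.12 ± 0.18 and 0.38 ± 0.17 and the ventricular myosin vmhc by 0.20 ± 0.20 and 0.09 ± 0.19.

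Markers of other cell types were compared between morphants and wild type as well. Of 15 heart marker rows 1 rose at 14 dpf (popdc2, 0.81 ± 0.23, adjusted p = 0.0455, lost with pairs averaged at adjusted p = 0.129) and 0 changed at 22 dpf (limma, 2 rows at an unadjusted p below 0.05). The mean of the heart list per array ran from 6.77 to 7.45 in morphants and 6.65 to 7.39 in wild type at 14 dpf, and from 6.78 to 7.35 and 6.75 to 7.20 at 22 dpf. Of 10 smooth muscle markers 0 were called at either age (limma, 1 and 0 rows at an unadjusted p below 0.05), with list means from 7.14 to 7.94 and 7.04 to 8.06 at 14 dpf. All 12 leukocyte markers lay above 0 at 14 dpf, with a median of 0.77 and 8 at an unadjusted p below 0.05 (limma). Of them 3 rose (irf8 2.41 ± 0.36, cd74b 1.12 ± 0.27 and spi1b 0.88 ± 0.24; 2 of the list with pairs averaged; cd74b gave 0.26 within title numbers 1 to 12 and 2.04 from 13 on) and 0 changed at 22 dpf (limma, 0 rows at an unadjusted p below 0.05). Leukocyte list means ran from 9.54 to 10.61 in morphants and from 8.31 to 9.89 in wild type at 14 dpf, against 9.18 to 10.12 and 9.32 to 10.51 at 22 dpf. The 15 skeletal muscle markers had medians of 0.12 and 0.09, with 0 called (5 and 2 rows at an unadjusted p below 0.05) and list means of at most 13.01 in morphants and 12.71 in wild type at 14 dpf. The part of these markers in the changes of ckmt2a, ckmt2b, actn4, unc45b and flnca was not tested.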

How the data were processed

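The authors' deposited table holds log2 intensities, 1 value per row and array, for 47 arrays hybridized with Cy3-labelled, amplified cDNA. The submitters' processing notes name RMA, with no version. RMA fits quantiles across the arrays of a run. Arrays have no read depth, so their number limits the precision. Values below 3.7 were equal between arrays in 10 of 2245 comparisons within 14 dpf, 51 of 51168 within 22 dpf and 2 of 22563 between ages, so the ages were taken as normalized separately.

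Groups came from the labels. All rows were fitted without a filter with limma 3.58.1 in R 4.3.3 on 4 group means (43 residual degrees of freedom, 37 with the 6 near-duplicate pairs averaged), with eBayes and Benjamini-Hochberg adjustment. Near-duplicates were pairs of a group whose deviations from the mean of its other arrays correlated above 0.65, taking rows whose mean reached 8. Correlations used permutations in Python 3.11.15. The fits were tested on simulated data, drawn as independent normal values with the mean and residual SD of each row. These data held no near-duplicate pairs or number groups, so that test does not cover their influence on the calls.

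Of the 72 row names, 63 are current symbols, 7 match 1 gene through a synonym and 2 are synonyms of several genes. Rows tnnt2 and myh11 keep the file's name because the genes they are synonyms of have rows of their own. The ckmt2a row was added by name after its rise was known. Members, classes and lists were chosen with earlier results of these data known. The rule for named genes took called members, the 2 highest and 2 most different of each class and a list of muscle genes, 35 rows in all; other members, and the pairs correlated, were named after their values were seen. Alternatives were averaging near-duplicates, median centring, fitting 1 age alone, title number groups as a block or alone, a trended robust variance, a filter at a mean of 6, and leaving out each array. Leaving out arrays for the difference of effects was added after seeing the data.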

Additional observations from a re-analysis of the deposited data

Results flagged for a closer look

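The effects of unc45b and flnca differed between the ages by the contrast of effects in limma, by 1.79 and 1.62 on the log2 scale, with opposite signs at 14 and 22 dpf. With near-duplicate pairs averaged flnca did not pass (1.53, adjusted p = 0.121), and within either title number group neither passed. Among the morphant groups (9 and 10 arrays) of the 35 named rows, 5 values, on 4 arrays, stood far from the others of their group. Chance alone flags about 1 in 20 groups, and 70 were examined. The wild-type groups of 14 arrays were not examined this way, so the list says nothing about them. On wild-type array 12 at 22 dpf ckmt2a was 7.63, against 10.80 to 14.30 on the others, and ckmt2b 12.58, against 13.63 to 14.81. On wild-type array 22 at 22 dpf mybpc3 was 8.99, against 10.33 to 12.14. Ckma of morphant array 17 at 22 dpf was 14.83, against 15.10 to 15.39 on the other arrays. Ckmt2b of morphant array 18 at 22 dpf was 13.58, against 14.29 to 15.10, and mybpc3 of the same array was 10.71, against 11.74 to 12.34. Mybpc3 of morphant array 2 at 14 dpf was 10.56, against 11.65 to 12.53. Tnni2a.1 of morphant array 16 at 22 dpf was 7.86, against 5.05 to 6.51.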

How the results depend on the processing

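At 14 dpf limma called 3 members (2.48% of all rows). They include ckmt2a, which was added with its rise known, and among the other 71 rows 1 rose and 1 fell. With near-duplicate pairs averaged limma called 1 member (actn4, against 1.27% of all rows). With only arrays of that age fitted, limma called 0 members and 0.62% of all rows (12 members at an unadjusted p below 0.05). At 22 dpf it called 1 (3.49% of all rows), 0 with pairs averaged (11 at an unadjusted p below 0.05; 2.12%), 0 with that age alone (18; 3.6%) and 2 with a trended, robust variance, which added myl1 (3.56%). The difference of effects called 2 members (0.645%), and 1 with pairs averaged (unc45b; 0.21%). Averaging leaves fewer samples and fitting 1 age leaves fewer residual degrees of freedom. The fit of all arrays also shares 1 spread per row between the ages, and the median spread was wider at 14 dpf. The median SD of all rows was 0.615 in morphants and 0.65 in wild type at 14 dpf, against 0.53 and 0.575 at 22 dpf. The cause of each lost call was not tested. Leaving out each array gave 1 to 4 members at 14 dpf, 0 to 3 at 22 dpf and 2 each time for the difference of effects. The share of all rows was not counted in these fits, so the range is not read as a trait of muscle genes. Centring, the number-group block and the filter at a mean of 6 gave 3, 4 and 4 members at 14 dpf (2.61%, 3.27% and 4.61% of all rows tested) and 1 each at 22 dpf (3.53%, 3.42% and 4.17%).

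Differences near 0 that passed no test changed sign. At 14 dpf acta1b became -0.0201 with pairs averaged and -0.00097 with the block, myh11a 0.0447 and tnni2a.1 0.0634 with pairs averaged, and mylpfa 0.0295, tnni2a.1 0.0313 and tnnt3b 0.0319 with centring. At 22 dpf acta2 became 0.0703 with pairs averaged, 0.018 with centring and 0.00583 with the block, and tnni2a.4 0.0037, 0.0375 and 0.012. Actn4 became 0.0106 with centring and 0.00124 with the block, and myl12.2 0.00496 with centring. The cause was not tested. No paired analysis was possible because the title numbers of morphant and wild-type arrays of an age are not shared.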
